A study of Mus musculus with 6 samples.

Results

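Cholesterol homeostasis was followed through 30 mouse genes that encode the SREBP2 regulatory complex, enzymes from acetyl-CoA to cholesterol, and proteins of sterol uptake, intracellular transport, efflux and storage. They were picked by symbol for their role in the pathway, with earlier results of these data known. All 30 were present among the 24354 genes of the expression table. RNA sequencing was done on basal epidermal cells of mouse embryos at E18.5, sorted for a high surface level of α6 integrin, the laminin receptor subunit of basal keratinocytes. The mutant group was 3 libraries from embryos homozygous for Pik3ca H1047R, written Pik3caH1047R/H1047R in the labels, an activating variant of the catalytic subunit p110α of phosphoinositide 3-kinase. It was set against 3 wild-type (WT) libraries, and every library carried the strain label C57BL6. The labels name no Cre driver, promoter of the allele, litter or number of embryos per library. They do not say whether replicates are separate animals either, and the p-values measure the spread between these libraries.

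Cholesterol is made from acetyl-CoA through mevalonate, the isoprenoid farnesyl diphosphate, squalene and lanosterol. When sterols in the endoplasmic reticulum are scarce, the escort protein SCAP carries the transcription factor SREBP2 to the Golgi, where proteases release its active domain, which raises transcription of the synthesis and uptake genes. INSIG proteins hold SCAP back when sterols are plentiful, and oxysterols activate the liver X receptors (LXR), which raise efflux genes. In epidermis, cholesterol is also a building block of the lipid lamellae of the water barrier.

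The values are FPKM, a fragment count corrected for transcript length and library size, so levels can be compared between genes per length. How library size was set is not given, and the libraries did not have equal FPKM totals. Absolute depth is unknown. Relative depth, with WT replicate 1 set to 1, came from the most frequent ratio among genes above 0 and under 1 FPKM throughout. It lay between 1.11 and 1.24 in mutant libraries and between 0.981 and 1.15 in WT libraries. The ratio was held by only 32 to 61 genes in mutant libraries, and by 93 and 173 in WT replicates 2 and 3. It includes any scaling of the deposited values between libraries. Summed FPKM was between 538627 and 651769 in mutant libraries and between 656761 and 767148 in WT libraries. Pik3ca itself had 7.15, 6.81 and 5.98 FPKM in mutant libraries, against 8.70, 8.92 and 9.50 FPKM in WT libraries, and FPKM does not tell the alleles apart. Itga6, the gene of the sort marker, had 120.6, 124.8 and 122.2 FPKM in mutant libraries, against 157.0, 160.9 and 171.6 FPKM in WT libraries. Both genes were lower in every mutant library with the deposited scaling. The most abundant basal marker, Krt5, was at 11360 to 13033 FPKM in mutant libraries and 11888 to 12194 FPKM in WT libraries, and the 8 basal markers summed to 23766 to 27179 FPKM in mutant libraries and 25924 to 26262 FPKM in WT libraries. With the deposited scaling, 4 of the 8 were called lower in mutant cells and 1 higher, with a median log2 fold change of -0.32. Over all genes tested 22.8% were called lower and 23.2% higher, the shares to set beside each count of called markers here. The suprabasal keratin Krt10 had 6649, 5783 and 5266 FPKM in mutant libraries, against 1796, 1451 and 1866 FPKM in WT libraries, so that every mutant library held more of it. Over 9 suprabasal markers in the table the summed level was 11764 to 14360 FPKM in mutant libraries and 3868 to 4669 FPKM in WT libraries, with 5 called higher, 1 called lower and none at 0 in every library. Markers of other cell types were low beside these. Over 10 dermal fibroblast markers the sum was 395.1 to 436.0 FPKM in mutant libraries and 485.3 to 644.4 FPKM in WT libraries. Of 9 tested, 3 were called lower and 0 higher. Melanocyte markers summed to 11 to 14.7 FPKM in mutant and 15.8 to 21.6 FPKM in WT libraries. Erythroid markers summed to 38 to 52.5 and 93.9 to 136.7 FPKM, and skeletal muscle markers to 7.89 to 8.26 and 13.3 to 19.5 FPKM. In these 3 lists 2 of 3, 1 of 4 and 2 of 3 tested were called lower and 0 higher. Endothelial markers summed to 0.661 to 1.57 and 1.14 to 2.7 FPKM, with 0 tested. The 8 sebocyte and adipocyte markers, cells rich in lipid, summed to 7.66 to 19.2 FPKM in mutant libraries and 4.52 to 40.7 FPKM in WT libraries, with 0 of 2 tested called by limma and 0 at an unadjusted p under 0.05. The 8 markers of Langerhans cells, macrophages and T cells summed to 8.54 to 8.94 FPKM in mutant libraries and 10.3 to 13.8 FPKM in WT libraries, with 2 of 5 tested called lower. Of these markers only Cd207 was listed at 0 in every library, which does not show that such cells were absent. The part of these differences in the results on the cholesterol genes was not tested. Xist and the Y-linked gene Ddx3y varied within the groups, so the 3 libraries of a group were not all repeats of the same source. Xist was at 71.1 FPKM in mutant replicate 3 and under 1 FPKM in the other mutant libraries and in WT replicate 3, and WT replicates 1 and 2 held both Xist (30.5 and 24.2 FPKM) and Ddx3y (15.8 and 17.6 FPKM).

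Of 18 synthesis enzymes 9 were higher in mutant libraries, together with Insig1 and the sterol carrier gene Stard4. The genes of SREBP2, INSIG2, the enzyme CYP51, NPC1, the efflux pump ABCA1 and LXRβ were lower with the deposited scaling. These 6 were not called with libraries set to the same total. A gene was called when its limma p-value, adjusted over the 11385 genes that averaged 1 FPKM or more, was under 0.05. Of the 30 cholesterol genes 29 passed that filter, all but the sterol exporter Abcg1. Of these 29, 11 were called higher in mutant cells (37.9%) and 6 lower (20.7%), or 17 in all (58.6%). Over all genes tested 23.2% were called higher, 22.8% lower and 46.0% in either direction, so the share of lower calls was close to the background and that of higher calls was above it. Since the genes were chosen with earlier results of these data known, these shares are a description and not a test. All 3 mutant values lay above all 3 WT values in 15 of the 29, below them in 6, and overlapped in 8. The groups did not overlap for 56.0% of all genes tested. The median log2 fold change, mutant minus WT on log2(FPKM + 1), was 0.14 for the 29 genes and 0.01 for all genes tested, and 21 of the 29 values were positive. With 3 libraries against 3, an exact permutation test of a single gene cannot give a two-sided p under 0.1, which it gave for every gene whose groups did not overlap.

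**Figure D1:**
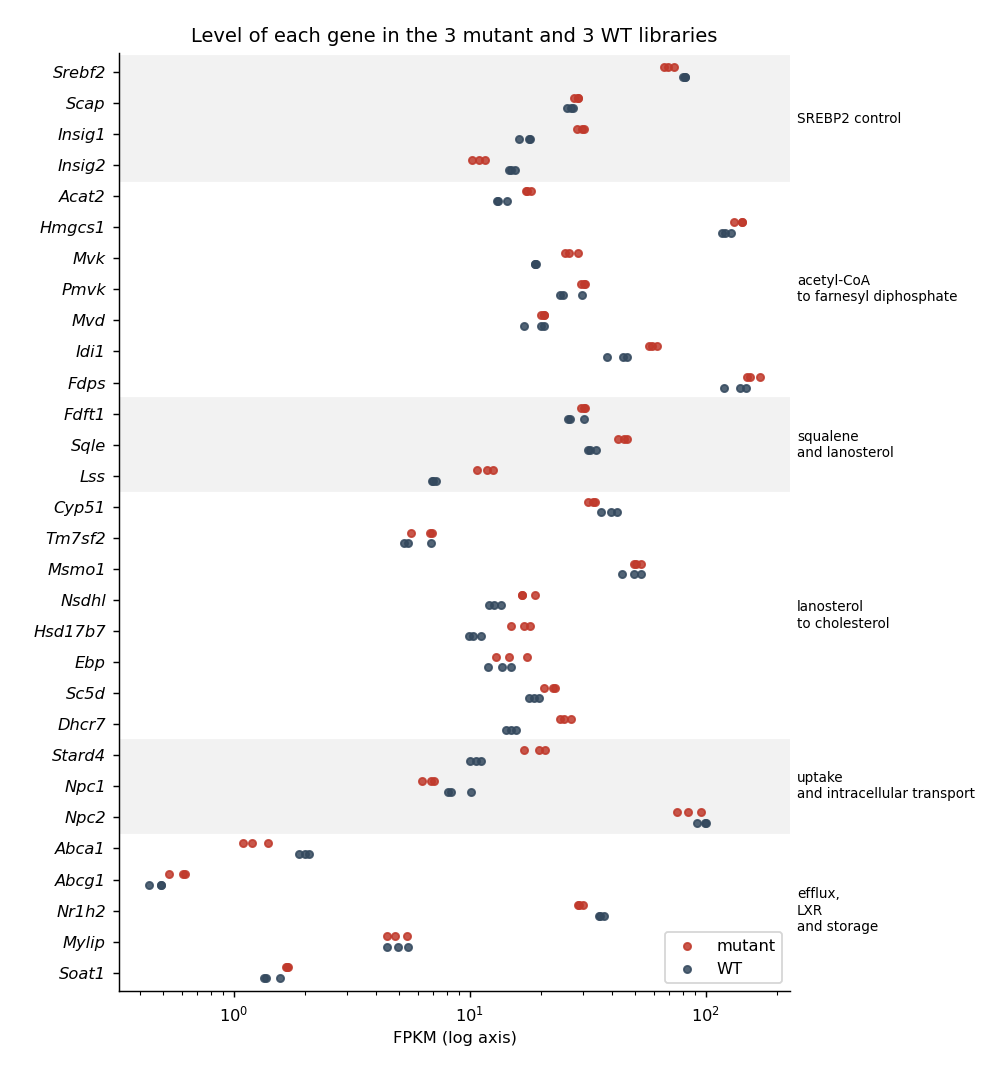
FPKM (log axis) of each of the 30 genes in pathway order, with a point for each of 3 mutant libraries (red, upper row of a gene) and 3 WT libraries (dark blue, lower row). Levels run from under 1 FPKM for Abcg1 to over 119 FPKM for Fdps in every library, and the red and blue points stand apart for Insig1, Lss, Dhcr7 and Stard4.

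The level of a gene depends on how libraries are scaled to each other. When all libraries were set to an equal FPKM total, the median log2 fold change of all genes tested was 0.303, a shift of 0.29. Under that scaling 21 of the 29 cholesterol genes were called higher, the 11 above and Scap, Hmgcs1, Pmvk, Mvd, Fdps, Fdft1, Tm7sf2, Msmo1, Ebp and Soat1, and 0 were called lower, beside 47.2% of all genes tested called higher and 7.40% lower under the same scaling, with 3 negative log2 fold changes and 0 lower at an unadjusted limma p under 0.05. The share of all genes called higher was thus also larger than with the deposited scaling. The median of the 29 was 0.45 there, which lay 0.15 above that of all genes, against 0.14 above it with the deposited scaling. The 10 higher genes Insig1, Acat2, Mvk, Idi1, Sqle, Lss, Nsdhl, Hsd17b7, Dhcr7 and Stard4 kept their call and direction in all 14 alternative settings, and none of the 6 lower genes did. Insig2 and Nr1h2 were called lower in 13 of the 14, and Abca1 in 12 of the 13 it was tested in. These 3 lost the call only with libraries at the same total. Npc1 was called lower in 12, Srebf2 in 8 and Cyp51 in 6. Relative to the median gene at equal totals, the 6 lower genes were at -0.53 (Abca1) to -0.19 (Srebf2). The share of all genes that kept their call in every setting was not counted. The strandedness of the libraries is not known, so values of Scap, Hmgcs1, Idi1, Lss and Cyp51, which share 166 to 985 exon bases with genes on the other strand, may include reads of those genes. In bulk cells, a higher or lower level can mean a change in the share of cells that express a gene. It can also mean a change in its RNA per cell, and these cannot be told apart.

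**Figure D2:**
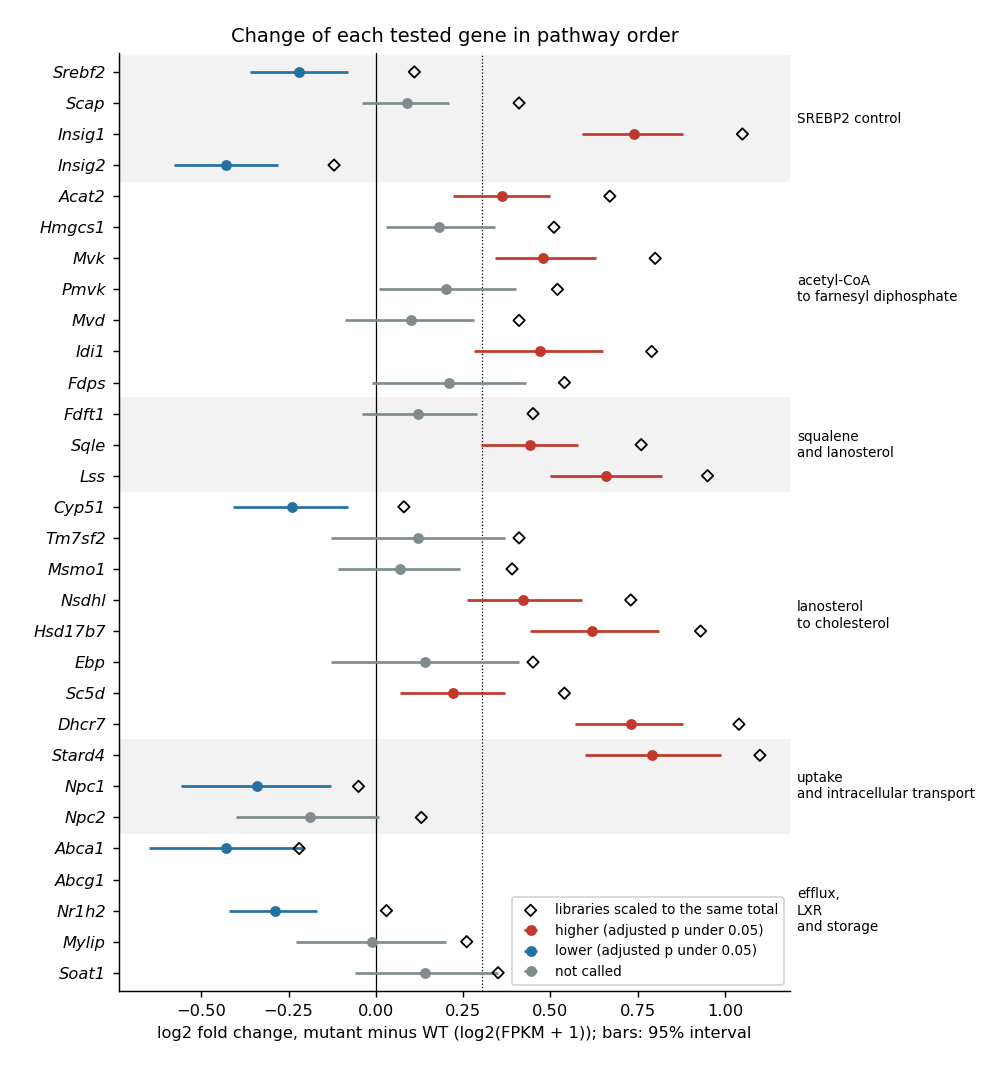
Log2 fold change, mutant minus WT on log2(FPKM + 1), with its 95% interval for the 29 tested genes in pathway order (red higher, blue lower, grey not called; Abcg1, under the filter, has no point). Open diamonds give the value after scaling libraries to the same total, and the dotted line is the median gene under that scaling, 0.303; Insig1, Dhcr7 and Stard4 lie right of the line either way, and Srebf2, Cyp51 and Nr1h2 cross 0.

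Among the 4 genes of SREBP2 control, the INSIG pair moved in opposite directions. Insig1, whose product retains SCAP in the endoplasmic reticulum and whose gene is a target of SREBPs, had 30.4, 28.4 and 29.9 FPKM in mutant libraries, against 18, 17.8 and 16.2 FPKM in WT libraries. Every mutant library was above every WT library, the ratio of means was 1.70, and the log2 fold change was 0.74 (SE 0.0624, limma adjusted p = 8.05e-05), at percentile 97.3 of all genes tested. Insig2, which encodes the second SCAP-retaining protein, had 10.2, 11.6 and 10.9 FPKM in mutant libraries, against 15.6, 14.7 and 14.9 FPKM in WT libraries. Here every mutant library was below every WT library, with a log2 fold change of -0.43 (SE 0.0644, limma adjusted p = 0.00131); it was -0.12 and not called with libraries at the same total (adjusted p = 0.397). The Insig1 level divided by the Insig2 level, a ratio picked after the values were seen and free of library scaling, was 2.97, 2.44 and 2.74 in mutant libraries and 1.15, 1.21 and 1.09 in WT libraries (2.72 ± 0.262 and 1.15 ± 0.0588, SD, n = 3 each; exact permutation p = 0.1, the smallest possible).

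Srebf2, the gene of SREBP2 itself, had 73, 68.8 and 66.3 FPKM in mutant libraries, against 81.4, 79.7 and 81.4 FPKM in WT libraries, means of 69.4 ± 3.42 and 80.9 ± 1 FPKM (SD, n = 3 each). The groups did not overlap, and the log2 fold change was -0.22 (SE 0.0594, limma adjusted p = 0.0184), but it was 0.11 and not called with libraries at the same total, and the call was lost without mutant replicate 2 (adjusted p = 0.0671), WT replicate 1 (0.0568) or WT replicate 2 (0.0549) and after quantile normalization (0.438). Scap, the sterol-sensing escort of SREBP2, was at 27.7 to 28.8 FPKM in mutant libraries and 25.9 to 27.4 FPKM in WT libraries, all mutant values being higher, with a log2 fold change of 0.09 that was not called (limma adjusted p = 0.217). Summed over the 4 genes, the level was 142.3, 136.6 and 135.9 FPKM in mutant libraries and 141.8, 138.1 and 140.0 FPKM in WT libraries, which overlapped.

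Promoters of these genes were read from RefSeq on GRCm38.p6, from 250 bases before to 50 bases after each start site, and 24 of the 30 genes had an entry. The motifs searched on both strands were the sterol regulatory element written TCACNCCAC, the CCAAT box (CCAAT, the site of the SREBP partner NF-Y), the GC box (GGGCGG, the site of Sp1) and the LXR element written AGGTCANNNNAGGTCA. The fixed letters of no motif hold another motif. A CCAAT box was present for 20 of the 24 (83.3%), against 43.1% of the 8656 tested genes with an entry and 41.1% of all 27025 genes with one. A GC box was present for 22 of the 24 (91.7%), against 71.3% of the tested and 38.2% of all genes. The sterol element in this strict spelling was found for 1 of the 24, Hmgcs1 (4.2%, against 1.42% of the tested and 1.44% of all genes), and the LXR element for 0 of the 24, 0 of the tested and 4 of all genes. The INSIG pair is shown because the genes moved in opposite directions and both hold the CCAAT box, which stands in capitals as CCAAT or, on the other strand, ATTGG. Insig1, on the plus strand, is shown at chr5:28071186-28071362, which ends 50 bases before the start site, and Insig2, on the minus strand, at chr1:121332590-121332735, the 146 bases before its start site. Each is written 5′ to 3′ in the direction of the gene.
Insig1: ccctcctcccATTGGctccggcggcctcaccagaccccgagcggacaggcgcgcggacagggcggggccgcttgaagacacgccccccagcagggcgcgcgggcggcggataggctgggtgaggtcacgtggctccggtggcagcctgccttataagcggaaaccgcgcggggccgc
Insig2: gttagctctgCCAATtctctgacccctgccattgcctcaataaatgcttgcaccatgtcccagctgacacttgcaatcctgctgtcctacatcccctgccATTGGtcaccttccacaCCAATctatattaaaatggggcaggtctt
In these stretches Insig1 has 1 CCAAT box and Insig2 has 3, and a match of letters is a description, not a measured site. Insig2 has further RefSeq start sites, and no CCAAT box was found in their windows. Which start site these cells use is unknown.

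From acetyl-CoA to farnesyl diphosphate, 3 of 7 enzymes were called higher and 0 lower by limma, with a median log2 fold change of 0.21 and positive values for all 7. Counts of calls by role, here and below, stand beside 23.2% higher and 22.8% lower over all genes tested. Acat2, cytosolic acetoacetyl-CoA thiolase, which condenses the first 2 acetyl units, had 17.5, 17.3 and 18.2 FPKM in mutant libraries, against 13.2, 14.4 and 13 FPKM in WT libraries (log2 fold change 0.36, limma adjusted p = 0.00223). The groups stood apart, but the value is uncertain, since Acat3 is 97.7% identical over 1477 transcript bases, and Tcp1, at a mean of 144.3 FPKM, is 98.7% identical over 445 bases, so reads may be split between them. Acat3 was at 9.97, 12 and 14.2 FPKM in mutant libraries and 16.1, 14 and 12.9 FPKM in WT libraries, with no call. Hmgcs1, the HMG-CoA synthase and second most abundant of the 30 genes, had 142.0, 142.0 and 131.9 FPKM in mutant libraries, against 117.0, 128.3 and 120.5 FPKM in WT libraries. Every mutant value was higher, yet the log2 fold change of 0.18 was not called (limma adjusted p = 0.0524). It was called without mutant replicate 3 (adjusted p = 0.0307), after quantile normalization (0.00472), with libraries at the same total (0.00513) and with Xist as a covariate (0.0259). The next enzyme, HMG-CoA reductase, was not analysed here.

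Mvk, mevalonate kinase, had 26.3, 25.4 and 28.8 FPKM in mutant libraries, against 18.8, 18.9 and 19 FPKM in WT libraries. The WT libraries were nearly level, all mutant libraries were higher, and the log2 fold change was 0.48 (SE 0.0624, limma adjusted p = 0.000642). Pmvk and Mvd, the phosphomevalonate kinase and the diphosphomevalonate decarboxylase that follow, were not called. Pmvk was at 29.5 to 30.8 FPKM in mutant libraries and 24.1 to 29.9 FPKM in WT libraries, with WT replicate 1 inside the mutant range; without that library it was called higher (log2 fold change 0.30, limma adjusted p = 0.0112), as it was after quantile normalization (0.0413). Mvd was at 20 to 20.7 FPKM in mutant libraries and 16.9 to 20.6 FPKM in WT libraries. Idi1, the isomerase that makes dimethylallyl diphosphate, had 59.3, 62.1 and 57.5 FPKM in mutant libraries, against 44.4, 46.3 and 38.2 FPKM in WT libraries. Its groups did not overlap (log2 fold change 0.47, limma adjusted p = 0.00243), and 3 processed pseudogenes over 90% identical could share its reads. Fdps, farnesyl diphosphate synthase and the most abundant of the 30 genes, had 153.8, 148.9 and 169.3 FPKM in mutant libraries, against 148.6, 140.0 and 119.3 FPKM in WT libraries. The groups only just separated, with mutant replicate 2 and WT replicate 1 nearly level, and the log2 fold change of 0.21 was not called (limma adjusted p = 0.102), though it was after quantile normalization (0.000724) and with Xist as a covariate (0.00557). It too has near-identical pseudogenes, and shares 1124 exon bases with Gm43738.

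The promoters of Hmgcs1 and Mvk are shown as the member with the strict sterol element and a called kinase with 5 CCAAT boxes. They are RefSeq sequence on GRCm38.p6, plus strand, at chr13:119690104-119690350 for Hmgcs1 and chr5:114444086-114444268 for Mvk, and each ends at the base before the start site. Capitals mark CCAAT boxes on either strand and, in Hmgcs1 only, the sterol element TCACCCCAC.
Hmgcs1: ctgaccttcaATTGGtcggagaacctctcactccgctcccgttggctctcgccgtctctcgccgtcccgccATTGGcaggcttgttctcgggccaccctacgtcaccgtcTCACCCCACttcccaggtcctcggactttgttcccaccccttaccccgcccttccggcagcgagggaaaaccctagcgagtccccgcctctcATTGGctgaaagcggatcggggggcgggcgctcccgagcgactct
Mvk: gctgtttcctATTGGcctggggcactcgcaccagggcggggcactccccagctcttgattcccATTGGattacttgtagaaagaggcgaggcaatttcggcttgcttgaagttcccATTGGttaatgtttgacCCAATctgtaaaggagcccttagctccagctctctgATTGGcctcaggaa
The sterol element of Hmgcs1 lies 137 to 129 bases before the start site, between CCAAT boxes on both sides.

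At squalene and lanosterol, 2 of 3 enzymes were called higher and 0 lower by limma, with a median log2 fold change of 0.44 and positive values for all 3. Fdft1, squalene synthase, the first step committed to sterols, was at 29.6 to 30.7 FPKM in mutant libraries and 26.1 to 30.5 FPKM in WT libraries, and was not called (log2 fold change 0.12, limma adjusted p = 0.185). WT replicate 1 lay within the mutant range, and without it Fdft1 was called higher (0.19, adjusted p = 0.0474); the gene shares 774 exon bases with Ctsb on the other strand, and the deposited interval was 70% to 76.3% of its level on each side. Sqle, squalene epoxidase, a rate-limiting oxygen-dependent step, had 46.5, 45.1 and 42.3 FPKM in mutant libraries, against 34.1, 31.7 and 32.3 FPKM in WT libraries. All mutant libraries were higher, with a log2 fold change of 0.44 (SE 0.0608, limma adjusted p = 0.000929). Lss, lanosterol synthase, which closes the sterol rings, had 11.8, 12.5 and 10.7 FPKM in mutant libraries, against 6.94, 7 and 7.19 FPKM in WT libraries. Means were 11.7 ± 0.900 and 7.04 ± 0.130 FPKM (SD, n = 3 each), a ratio of 1.66 and a log2 fold change of 0.66 (SE 0.0693, limma adjusted p = 0.000248), at percentile 96.3 of all genes tested. The 55 bases of its RefSeq promoter from 72 to 18 bases before the start site (GRCm38.p6, chr10:76531533-76531587, plus strand) are shown for the single CCAAT box, in capitals on the other strand.
Lss: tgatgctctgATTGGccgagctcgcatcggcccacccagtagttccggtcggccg
No other CCAAT box is in that stretch.

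From lanosterol to cholesterol, 4 of 8 enzymes were called higher and 1, the first, lower, with a median log2 fold change of 0.18. Cyp51, lanosterol 14α-demethylase, had 33.1, 34 and 31.5 FPKM in mutant libraries, against 42, 39.6 and 35.8 FPKM in WT libraries. All mutant values were lower (log2 fold change -0.24, SE 0.0714, limma adjusted p = 0.0252), but the value was 0.08 with libraries at the same total, and leaving out any library but WT replicate 3 ended the call (adjusted p 0.0516 to 0.0837), as did quantile normalization (0.059). Lss, the step before, was higher in those libraries. The ratio of Lss to Cyp51, picked after the values were seen and free of library scaling, was 0.358, 0.368 and 0.340 in mutant libraries and 0.165, 0.177 and 0.201 in WT libraries (exact permutation p = 0.1, the smallest possible). Tm7sf2 and Msmo1, a sterol C14-reductase and the C4-methyl oxidase, were not called. Tm7sf2 was at 5.61 to 6.92 FPKM in mutant libraries and 5.28 to 6.83 FPKM in WT libraries; it shares 532 exon bases with Vps51, and its deposited interval was 76.8% to 100% of its level on each side. Msmo1 was at 49.8 to 53.3 FPKM in mutant libraries and 44.1 to 53.2 FPKM in WT libraries, and these overlapped.

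Nsdhl and Hsd17b7, which complete removal of the C4 methyl groups, were both called higher. Nsdhl had 16.7, 16.6 and 18.9 FPKM in mutant libraries, against 13.5, 12.6 and 12 FPKM in WT libraries (log2 fold change 0.42, SE 0.0723, limma adjusted p = 0.00241). Hsd17b7 had 17, 18 and 15 FPKM in mutant libraries, against 11.1, 9.95 and 10.3 FPKM in WT libraries (log2 fold change 0.62, SE 0.0794, limma adjusted p = 0.000599). In neither gene did the groups overlap, and Nsdhl is X-linked, with the highest value in mutant replicate 3, the library with the highest Xist. Ebp, the sterol isomerase and the other X-linked gene of the 30, was at 14.7, 12.9 and 17.5 FPKM in mutant libraries and 14.9, 13.7 and 11.9 FPKM in WT libraries. It overlapped and was not called (limma adjusted p = 0.352), but with Xist as a covariate, added after the data were seen, it was called higher (log2 fold change 0.21, adjusted p = 0.0230). The Hsd17b7 promoter, RefSeq on GRCm38.p6, minus strand, chr1:169969242-169969380, is shown 5′ to 3′ for its CCAAT boxes, in capitals on the other strand.
Hsd17b7: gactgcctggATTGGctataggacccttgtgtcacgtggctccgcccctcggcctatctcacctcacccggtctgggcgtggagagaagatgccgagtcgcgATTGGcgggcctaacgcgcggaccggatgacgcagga
The stretch runs from 175 to 37 bases before the start site and holds 2 CCAAT boxes, and a further one lies 12 to 8 bases before the start site, outside it.

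Sc5d, the desaturase that makes 7-dehydrocholesterol, had 22.6, 22.9 and 20.7 FPKM in mutant libraries, against 19.7, 17.8 and 18.7 FPKM in WT libraries. Mutant values were all higher (log2 fold change 0.22, limma adjusted p = 0.0246), and the call was lost without mutant replicate 1 (adjusted p = 0.0785), mutant replicate 2 (0.0927) or WT replicate 2 (0.0942). Dhcr7, the reductase that turns 7-dehydrocholesterol, which in skin is also the precursor of vitamin D3, into cholesterol, had 26.9, 25 and 24 FPKM in mutant libraries, against 14.2, 14.9 and 15.7 FPKM in WT libraries. The groups were far apart relative to their spread, with means of 25.3 ± 1.48 and 14.9 ± 0.766 FPKM (SD, n = 3 each), a ratio of 1.70 and a log2 fold change of 0.73 (SE 0.0663, limma adjusted p = 0.000119). Sterol Δ24-reductase was not analysed here. Over the 18 synthesis enzymes 9 were called higher and 1 lower, and their summed level was 726.1, 722.6 and 724.4 FPKM in mutant libraries and 639.4, 621.5 and 570.5 FPKM in WT libraries. These sums did not overlap (724.4 ± 1.79 and 610.4 ± 35.8 FPKM, SD, n = 3 each; ratio 1.19, exact permutation p = 0.1, the smallest possible), and WT replicate 3 was the lowest. Fdps and Hmgcs1, neither of them called, were the largest terms. Their means were 157.3 and 138.6 FPKM in mutant libraries and 136 and 121.9 FPKM in WT libraries.

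**Figure D3:**
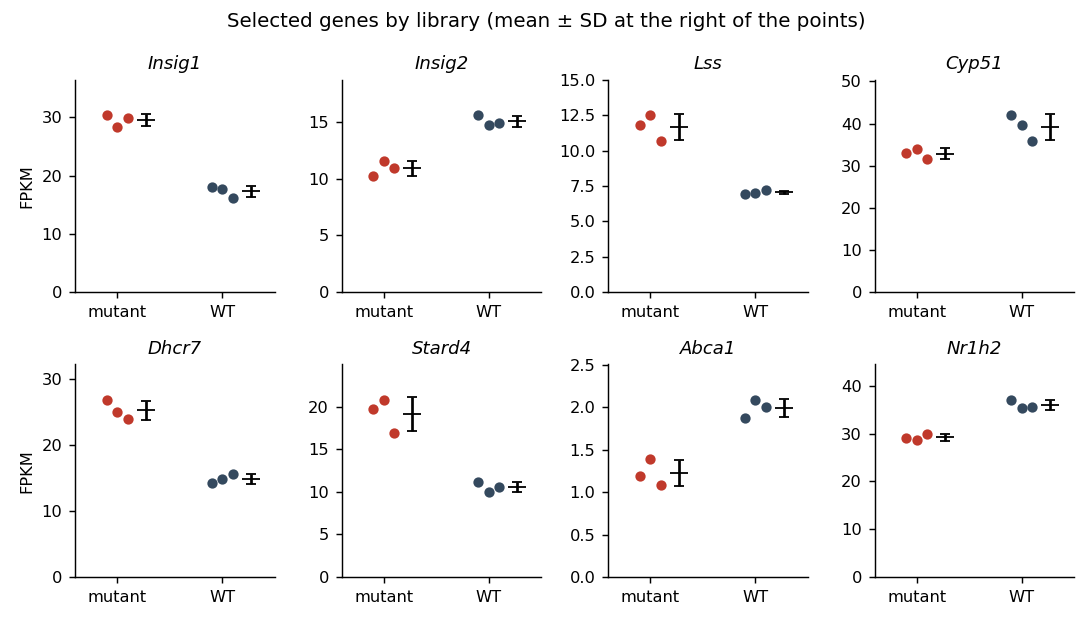
FPKM by library for 8 genes, with 3 mutant libraries (red, left) and 3 WT libraries (dark blue, right) and the mean ± SD beside each group; every axis starts at 0. Insig1, Lss, Dhcr7 and Stard4 are higher in all mutant libraries, and Insig2, Cyp51, Abca1 and Nr1h2 are lower in all of them with the deposited scaling; with libraries at the same total Cyp51 and Nr1h2 have small positive log2 fold changes (0.08 and 0.03).

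Of the 3 transport genes, 1 was called higher and 1 lower, with a median log2 fold change of -0.19. Over all genes tested 23.2% were called higher and 22.8% lower, and 3 genes are too few to set against these shares. Stard4, a soluble carrier that moves cholesterol between membranes and an SREBP2 target, had 19.7, 20.8 and 16.9 FPKM in mutant libraries, against 11.1, 10 and 10.6 FPKM in WT libraries. Its log2 fold change of 0.79 was the highest of the 29 genes (SE 0.0845, limma adjusted p = 0.000256, ratio of means 1.81), at percentile 97.8 of all genes tested. Npc1, the lysosomal membrane protein that exports cholesterol taken up with lipoproteins, had 7.05, 6.85 and 6.27 FPKM in mutant libraries, against 8.08, 8.29 and 10.1 FPKM in WT libraries. No mutant value reached a WT value (log2 fold change -0.34, limma adjusted p = 0.0173); the value was -0.05 with libraries at the same total, and the gene shares 511 exon bases with Rmc1 on the other strand. Npc2, the soluble lysosomal partner that hands cholesterol to NPC1, had 75.6, 84 and 95 FPKM in mutant libraries, against 98.9, 100.2 and 91.6 FPKM in WT libraries. Mutant replicate 3 lay inside the WT range and no call was made (log2 fold change -0.19, limma adjusted p = 0.111; 0.13 with libraries at the same total); without that library Npc2 was called lower (-0.28, adjusted p = 0.0208).

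For efflux, LXR and storage, 0 of 4 tested genes were called higher by limma, 0 also at an unadjusted p under 0.05, and 2 were called lower, with a median log2 fold change of -0.15. Beside 23.2% higher and 22.8% lower over all genes tested, 4 genes are too few to set the role apart. Abca1, the pump that loads cholesterol onto apolipoprotein acceptors, had 1.19, 1.39 and 1.09 FPKM in mutant libraries, against 1.88, 2.09 and 2 FPKM in WT libraries. All mutant values were lower, with a ratio of means of 0.615 and a log2 fold change of -0.43 (SE 0.0952, limma adjusted p = 0.00783), which understates the change of so low a gene. It was -0.22 and not called with libraries at the same total (adjusted p = 0.192). Abcg1, which exports sterol to lipoprotein particles, had 0.606, 0.529 and 0.618 FPKM in mutant libraries, against 0.492, 0.492 and 0.437 FPKM in WT libraries, under the filter and with a deposited interval of 55.9% to 61.6% of its level on each side. Mutant values were higher here, opposite to Abca1, and the gene was not called when the filter was dropped.

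Nr1h2, which encodes LXRβ, had 29.1, 28.6 and 30 FPKM in mutant libraries, against 37.1, 35.3 and 35.6 FPKM in WT libraries. The groups stood apart (log2 fold change -0.29, SE 0.0538, limma adjusted p = 0.00342), but the value was 0.03 with libraries at the same total. Mylip, the ubiquitin ligase IDOL that degrades lipoprotein receptors and is an LXR target, was at 4.45 to 5.42 FPKM in mutant libraries and 4.44 to 5.49 FPKM in WT libraries, with a log2 fold change of -0.01 (95% interval -0.23 to 0.20; 0.26 with libraries at the same total, not called). Soat1, which esterifies cholesterol for storage, had 1.69, 1.68 and 1.66 FPKM in mutant libraries, against 1.56, 1.37 and 1.34 FPKM in WT libraries, all mutant values being higher but not called (log2 fold change 0.14, limma adjusted p = 0.217). The summed level of the 5 genes was 37.4, 37.6 and 37.8 FPKM in mutant libraries and 45.5, 44.2 and 44.9 FPKM in WT libraries, a sum set mostly by Nr1h2.

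**Figure D4:**
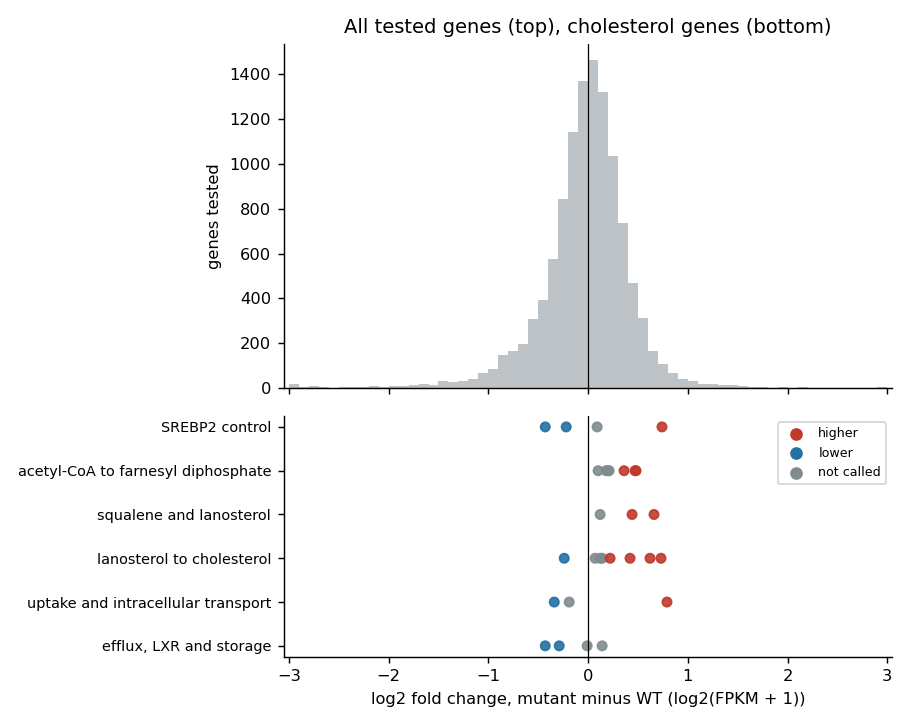
Top, number of genes by log2 fold change (mutant minus WT on log2(FPKM + 1)) over the 11385 genes tested, with values past 3 placed in the end bars; bottom, the 29 tested cholesterol genes by role, with a point per gene (red higher, blue lower, grey not called). The enzyme rows lie right of 0 except for Cyp51 (0.08 with libraries at the same total), while the SREBP2 control, transport and efflux rows hold points on both sides.

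Genes around the pathway were counted from lists chosen with earlier results of these data known, and the counts stand beside 23.2% higher and 22.8% lower over all genes tested. Of the genes named from them as lower, Ch25h alone was still called lower with libraries at the same total, and Osbpl9 (0.01) and Rxrb (0.03) changed sign there, while every gene named as higher stayed called. Of 13 genes for SREBP processing and sterol-regulated degradation in the endoplasmic reticulum, 6 were called higher and 1 lower, with a median log2 fold change of 0.30. Tmem97, the sigma-2 receptor, which binds NPC1, had 27, 28.7 and 29.9 FPKM in mutant libraries, against 17.9, 18.7 and 16.2 FPKM in WT libraries (log2 fold change 0.67, limma adjusted p = 0.000244). Erlin1, a membrane scaffold that restrains SREBP activation, had 19, 19.7 and 17 FPKM in mutant libraries, against 12.7, 12.5 and 13.3 FPKM in WT libraries (0.50, adjusted p = 0.000948). Both were higher in every mutant library. Mbtps2, the site-2 protease that releases SREBPs in the Golgi, was also called higher (0.36, adjusted p = 0.00345), and Sec24d, a coat protein of the vesicles that leave the endoplasmic reticulum, lower (-0.32, adjusted p = 0.00337).

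Of 7 genes that supply acetyl-CoA or electrons, 3 were called higher and 0 lower by limma, 0 also at an unadjusted p under 0.05, with a median of 0.18. Acly, ATP citrate lyase, which makes cytosolic acetyl-CoA, had 75.3, 69.2 and 71.4 FPKM in mutant libraries, against 53.6, 53.7 and 53.4 FPKM in WT libraries (log2 fold change 0.42, limma adjusted p = 0.000818). The WT libraries were level and the mutant ones all higher. Slc25a1, the mitochondrial citrate carrier, was called higher with 0.20 (adjusted p = 0.0468), and Cyb5b, an electron donor of the outer mitochondrial membrane, with 0.58 (adjusted p = 0.000168). Cyb5a, cytochrome b5 of the endoplasmic reticulum, had -0.03 and was not called, but with libraries at the same total it had 0.30 and was called higher (adjusted p = 0.00509). In the 9 genes of the isoprenoid branches 2 were called higher and 1 lower, with a median of -0.01. Nus1, a subunit of the dolichol-forming prenyltransferase, had 0.39 (adjusted p = 0.00234), and Pggt1b, the type I protein prenyltransferase subunit, had 0.32 (adjusted p = 0.00496). Ggps1, the synthase of the next longer isoprenoid diphosphate, which draws on the same farnesyl diphosphate as Fdft1, had -0.34 (adjusted p = 0.00429), and Fnta, a shared prenyltransferase subunit, had -0.01 and was not called, but had 0.31 and was called higher with libraries at the same total (adjusted p = 0.012).

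Of 15 tested genes for other uptake and transport, 3 were called higher and 5 lower, with a median of 0.04. Stard5, a sterol-binding relative of Stard4, had 16.8, 16 and 15 FPKM in mutant libraries, against 6.75, 6.58 and 7.36 FPKM in WT libraries, a ratio of means of 2.31 (log2 fold change 1.10, limma adjusted p = 2.07e-05). Lipa, the lysosomal acid lipase that frees cholesterol from lipoprotein esters, had 3.44, 3.91 and 4.36 FPKM in mutant libraries, against 5.97, 5.39 and 5.76 FPKM in WT libraries (-0.45, adjusted p = 0.00411). In neither gene did the groups overlap. The lipid transfer protein genes Osbpl9 and Gramd1a were called lower, with -0.31 (adjusted p = 0.0042) and -0.32 (adjusted p = 0.00446). In 6 tested LXR partners and targets, 1 was called higher and 2 lower, with a median of 0.07. Rxra, the retinoid X receptor that pairs with LXR and with many other nuclear receptors, had 99, 96.5 and 91.9 FPKM in mutant libraries, against 48.3, 51.5 and 57.1 FPKM in WT libraries (0.86, adjusted p = 8.65e-05). Its mutant values were all well above the WT values. Rxrb, a second such receptor, had -0.29 (adjusted p = 0.00613), Smpdl3a, an LXR target in human macrophages, had -0.35 (adjusted p = 0.0097), and Lpcat3, a phospholipid-remodelling LXR target, had 0.02 and was not called.

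In the list on sterol esters, sulfate and oxysterols, 9 of 10 genes were in the table, 5 were tested, 1 was called higher and 2 lower. Sult2b1, which makes cholesterol sulfate in differentiating epidermis, had 30.5, 28.1 and 29 FPKM in mutant libraries, against 15.2, 13.9 and 13.9 FPKM in WT libraries (ratio of means 2.04, log2 fold change 0.98, limma adjusted p = 2.31e-05). Ch25h, the hydroxylase that makes 25-hydroxycholesterol, an oxysterol that restrains SREBP processing and activates LXR, had 44, 60.5 and 76.8 FPKM in mutant libraries, against 387.1, 339.3 and 374.1 FPKM in WT libraries. The lowest WT value was far above the highest mutant value, the ratio of means was 0.165, and the log2 fold change was -2.62 (SE 0.176, adjusted p = 2.8e-05). Hsd3b7, which acts on oxysterols on the way to bile acids, had -0.33 (adjusted p = 0.0226), and Cyp39a1, an oxysterol hydroxylase, had -0.03 and was not called (0.27 with libraries at the same total, not called). Sult2b1 was higher in the same libraries as the suprabasal keratin Krt10, and the part of cell state in this was not tested.

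**Figure D5:**
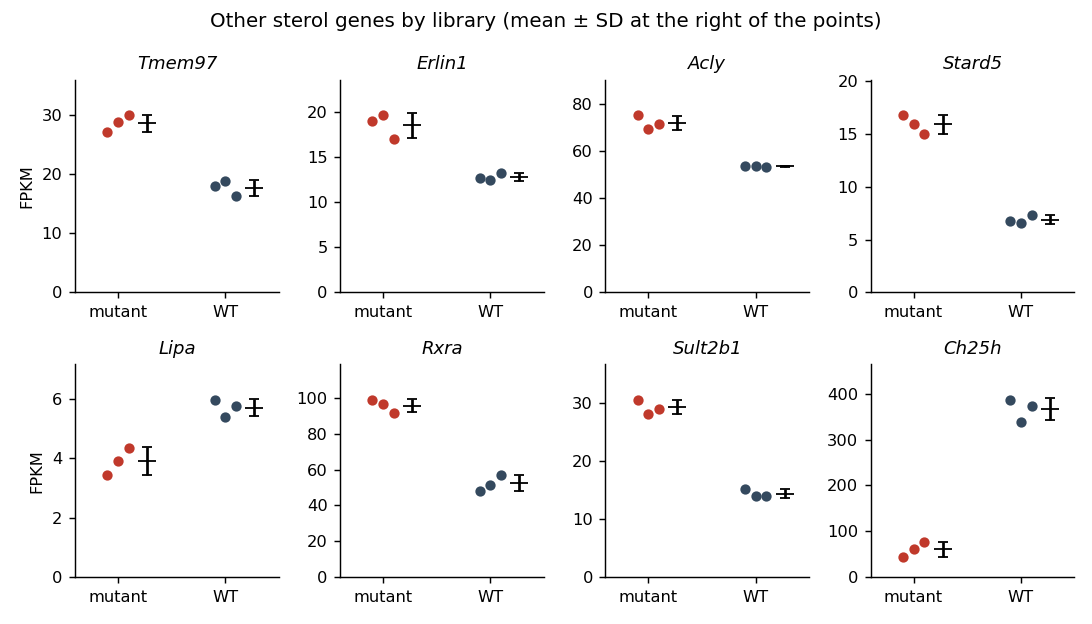
FPKM by library for 8 sterol genes outside the 30, with 3 mutant libraries (red, left) and 3 WT libraries (dark blue, right) and the mean ± SD beside each group; every axis starts at 0. Stard5, Rxra and Sult2b1 are higher in every mutant library, with ratios of means of 2.31, 1.83 and 2.04, and Ch25h is lower in every mutant library, with a ratio of 0.165.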

How the data were processed

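RNA of basal epidermal cells with high surface α6 integrin, sorted by flow cytometry, was sequenced in 3 mutant and 3 WT libraries, grouped by the genotype label. The authors deposited FPKM for every gene in each library, along with interval bounds and a quantification status, per the file headers. TopHat, Cufflinks and the build mm9 are named in the submitters' processing notes, without versions, settings, strandedness or the scaling of libraries. Of 23315 symbols found in GENCODE M21 on GRCm38, 98.9% overlapped the gene of that name, so positions were read as GRCm38. All values of the 30 genes had the status OK, and 0 sample columns were left unmapped.

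Values were tested with limma 3.58.1 in R 4.3.3 (empirical Bayes with a trend) on log2(FPKM + 1) for genes averaging 1 FPKM or more. Tests were two-sided, p-values were adjusted by Benjamini-Hochberg over all genes tested, and calls used 0.05. Log2 fold changes subtract WT from mutant and understate changes of low genes. A fold given as a ratio is of mean FPKM. The fit was run on values simulated from the same model with known changes, which checks the code and does not test the calls. Near-identical transcripts were searched with BLAST+ 2.17.0; Python 3.11.15, pandas 2.3.3, numpy 2.4.6 and matplotlib 3.10.9 made tables and figures. Intervals cover 95%. Since values are not counts, no count test was run.

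The 30 genes and all lists were chosen with earlier results of these data known. All 30 are named; of each other list up to 4 genes are named, called ones first by smallest p, then by highest mean FPKM, and of the basal and suprabasal markers that with the highest mean FPKM. Itga6, as the sort marker, and Cd207, as a marker at 0, were named after their values were seen. Alternatives covered pseudocount, filter, library scaling, variance prior, replicate block, leaving out each library and, added after the data were seen, Xist as a covariate.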

Additional observations from a re-analysis of the deposited data

How the results depend on the processing

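Most counts of calls kept within 1.5 times of those reported (11 cholesterol genes higher and 6 lower; 2642 and 2592 of all genes) under the other pseudocount, the filters, quantile normalization, the variance prior, the Xist covariate and leaving out a library. Leaving out a library gave 10 to 13 cholesterol genes higher and 4 to 6 lower. With libraries at the same total FPKM, 5375 genes were higher and 842 lower, or 86.5% of calls higher, against 50.5% with the deposited scaling, and 21 cholesterol genes were higher and 0 lower. There the log2 fold changes of Srebf2 (0.108), Cyp51 (0.08), Npc2 (0.134), Nr1h2 (0.03) and Mylip (0.262) changed sign. The median gene was at 0.303 under that scaling, and relative to it these genes stayed negative. The values were -0.19 for Srebf2, -0.22 for Cyp51, -0.17 for Npc2, -0.27 for Nr1h2 and -0.04 for Mylip. Without single libraries, that of Msmo1 ran from -0.007 to 0.126 and that of Mylip from -0.078 to 0.049. What scaled the deposited values is not given, so the direction of these genes rests on it, and the cause was not tested. A replicate block left 10 cholesterol genes higher and 3 lower, with Srebf2 (adjusted p = 0.0846), Cyp51 (0.0546), Npc1 (0.0526) and Sc5d (0.0725) no longer called, and 1889 and 1909 of all genes. Deviations of same-numbered libraries from their group means correlated at 0.127, 0.122 and -0.007. Those of unlike-numbered libraries correlated at -0.157 to 0.062. With so few libraries, whether the number pairs them cannot be told. Absolute depth is unknown, and among the 30 genes the deposited intervals were widest for Tm7sf2 (76.8% to 100% of the level on each side) and Fdft1 (70% to 76.3%). For all 30 genes they were about 31.5% or more on each side. For Srebf2, called lower at a ratio of means of 0.858, they were 37.5% to 39.2%. The limma fit does not use these intervals.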
